A study of Mus musculus with 18 samples.

Results

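Alb, Apoa1, Mup2, Mup3 and Mup7 are 5 genes whose proteins the liver secretes, and they were followed here across 18 RNA libraries of mouse hippocampus and cortex. They were taken by symbol from the 23238 gene symbols of the count tables and were selected on their counts in 1 library, the hippocampus after 16 weeks of exposure, where they stood high. Their levels in that library are therefore a description with no test, and tests used the other 17 libraries. The mice were male C57BL/6, 7 weeks old at the start, and received urban particulate matter (UPM), a certified reference dust suspended in phosphate-buffered saline (PBS), or PBS alone, by the intranasal route. UPM was given every day for 3, 5 or 7 days (short-term) or on 2 days a week for 3, 8, 12, 16 or 20 weeks (long-term), so duration goes with age, dosing rhythm and total dose, and the time of the PBS control is not given in the sources used here. Each tissue had 1 control, 3 short-term and 5 long-term libraries. The mice of a group were pooled at the RNA step, so no time point has a replicate, and p-values measure only the spread between libraries of different times.

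Albumin, encoded by Alb, is the main protein of blood plasma and carries fatty acids, hormones and drugs. Apoa1 encodes apolipoprotein A-I, the scaffold of high-density lipoprotein (HDL), which hepatocytes and the intestine secrete. Mup2, Mup3 and Mup7 belong to the major urinary proteins, small lipocalins that bind pheromones, are made mostly by the liver under growth hormone and androgen control, and pass into urine. Brain tissue is not a known main site of synthesis of albumin or major urinary proteins, and their proteins reach the brain through plasma and cerebrospinal fluid, whereas these libraries measured polyadenylated RNA.

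The genes sit in separate parts of the genome (GRCm38, GENCODE M21). Alb spans chr5:90460897-90476602 on the plus strand and Apoa1 chr9:46228580-46230466 on the plus strand. Mup2 (chr4:60135932-60154289), Mup3 (chr4:62083476-62087342) and Mup7 (chr4:60066469-60070475) lie on the minus strand within a cluster of 20 Mup rows that covers 2194 kb of chromosome 4. The 200 bases upstream of the RefSeq start (GRCm38.p6) are shown for Alb and for 2 Mup genes, because Alb and the Mup genes lie on different chromosomes and stood high in the same library. They are chr5:90460670-90460869 (plus strand), chr4:60139857-60140056 (minus strand) and chr4:62087318-62087517 (minus strand). Capitals mark matches on either strand to 4 motifs. The half-site of the hepatocyte factor HNF1 was searched as GTTAAT. The site of C/EBP factors was searched as TTGCNNAA. The CCAAT box was searched by its own letters, and the TATA box as TATANAA.
Alb: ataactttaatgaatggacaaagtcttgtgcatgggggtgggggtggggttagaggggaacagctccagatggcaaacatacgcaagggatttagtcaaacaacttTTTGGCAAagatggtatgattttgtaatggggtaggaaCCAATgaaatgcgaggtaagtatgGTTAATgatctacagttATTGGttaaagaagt
Mup2: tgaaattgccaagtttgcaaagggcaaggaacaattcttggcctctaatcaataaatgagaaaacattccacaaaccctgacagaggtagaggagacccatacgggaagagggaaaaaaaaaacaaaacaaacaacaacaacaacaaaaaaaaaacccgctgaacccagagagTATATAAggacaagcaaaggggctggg
Mup3: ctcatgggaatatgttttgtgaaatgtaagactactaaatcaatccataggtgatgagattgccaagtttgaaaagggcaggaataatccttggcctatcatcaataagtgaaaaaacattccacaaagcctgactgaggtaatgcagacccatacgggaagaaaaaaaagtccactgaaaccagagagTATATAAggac
In Alb the HNF1 half-site lay 32 to 27 bases before the start, the C/EBP site, on the other strand, 94 to 87 bases before it, and a CCAAT box 56 to 52 and, on the other strand, 15 to 11 bases before it. Mup2 held a TATA box 27 to 21 bases and Mup3 11 to 5 bases before its start, and both held none of the other 3 motifs. These distances are to the RefSeq starts, which differ from the GENCODE ones. The Mup2 window lies within the GENCODE span of Mup2 given above, and the Mup3 window overlaps that of Mup3. Of the other members, the Apoa1 window held none of the 4 motifs. The Mup7 window held a CCAAT box, on the other strand, 118 to 114 bases before its start, and no TATA box. Its last bases align with the first of the Mup2 window, 98.5% identical over 66 aligned bases. The stretch that holds the TATA box in Mup2 thus lies outside the Mup7 window. No 2 matches overlapped. Of 32851 RefSeq promoter windows of the same length, 5.06% held the HNF1 half-site, 7.47% the C/EBP site, 29.3% the CCAAT box and 8.32% the TATA box. The Mup2 and Mup3 windows were identical at 88.4% of 146 aligned bases. A match is a description of letters, and binding was not measured.

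Neuron genes of the 17 tested libraries went with the tissue labels. Over these libraries, 8 of 10 hippocampal neuron genes were called higher and 10 of 10 cortical neuron genes lower in hippocampus than in cortex. Of all genes tested, 11.9% were called. In the 16-week hippocampus the hippocampal neuron genes summed to 435 CPM (counts scaled to the total counts of the library), against 320 to 565 in the 8 other hippocampus libraries and 134 to 201 in cortex, while the cortical neuron genes summed to 2282 CPM, above the 728 to 1899 of the other hippocampus libraries and below the 2671 to 4166 of cortex. Libraries held 5.43 to 8.97 M counts. A single count corresponded to between 0.112 and 0.184 CPM, and the detection floor used here, 3 counts, to between 0.335 and 0.552 CPM. The file headers split the libraries into 2 sets, 8 of 3, 5 and 7 days and 3 weeks and 10 of the controls and 8 to 20 weeks. The columns of 12, 16 and 20 weeks carry their time in the header, whereas both 8-week columns are headed by a 1 in its place, as the controls are, and were taken as 8 weeks from the sample each table was deposited under.

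Alb was detected in all 18 libraries. In hippocampus it measured 39.6 CPM in the control, 22.8, 2.58 and 6.38 CPM at 3, 5 and 7 days, and 9.61, 7.05, 13.7, 339.6 and 10.2 CPM at 3, 8, 12, 16 and 20 weeks. The 16-week library held 2566 Alb counts (95% Poisson interval 327 to 353 CPM, counting error only), and the control came next with 315. In cortex Alb measured 2.67 CPM in the control, 1.67, 2.93 and 1.70 CPM at 3, 5 and 7 days, and 4.78, 34.4, 5.42, 27.1 and 1.09 CPM at 3, 8, 12, 16 and 20 weeks. The cortex at 8 and at 16 weeks, with 253 and 234 counts, thus lay near the hippocampus control, and their neighbours at 12 and 20 weeks did not. In the order of the 18 levels the counting intervals of the hippocampus control, the cortex at 8 weeks and the cortex at 16 weeks overlapped from one to the next, and the 16-week hippocampus overlapped none.

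Apoa1 was also highest in the 16-week hippocampus and next highest in the hippocampus control. It measured 18.3 CPM in the hippocampus control, 14.9, 1.47 and 1.49 CPM at 3, 5 and 7 days, and 3.11, 3.34, 5.19, 92.8 and 7.83 CPM at 3, 8, 12, 16 and 20 weeks. In cortex it measured 2.54 CPM in the control, 1.78, 1.10 and 0.243 CPM at 3, 5 and 7 days, and 3.03, 12.0, 4.33, 7.05 and 0.547 CPM at 3, 8, 12, 16 and 20 weeks. The hippocampus at 3 days, with 87 counts, was the third highest for Apoa1, and its interval overlapped those of the control above and of the cortex at 8 weeks below.

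Mup2 measured 23.9 CPM in the hippocampus control, 3.59, 0.552 and 0.679 CPM at 3, 5 and 7 days, and 1.13, 2.60, 2.13, 118 and 5.44 CPM at 3, 8, 12, 16 and 20 weeks. In cortex it measured 1.20 CPM in the control, 0.446, 0.732 and 0.243 CPM at 3, 5 and 7 days, and 1.40, 7.63, 0.963, 8.67 and 0.684 CPM at 3, 8, 12, 16 and 20 weeks. The hippocampus control, with 190 counts, lay above every library but the 16-week hippocampus, with no overlap of counting intervals on either side.

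Mup3 measured 7.66 CPM in the hippocampus control, 4.79, 1.66 and 0 CPM at 3, 5 and 7 days, and 0, 1.98, 1.20, 50.8 and 2.12 CPM at 3, 8, 12, 16 and 20 weeks. It had no count in 5 libraries, hippocampus at 7 days and 3 weeks and cortex at 3 days, 7 days and 20 weeks, where a level up to the floor of 3 counts is allowed. In the other cortex libraries it measured 0.401 CPM in the control, 0.366 CPM at 5 days, and 0.349, 3.27, 0.722 and 2.66 CPM at 3, 8, 12 and 16 weeks. Mup3 was the lowest of the 5 genes in the 16-week hippocampus, with 384 counts.

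Mup7 measured 16.3 CPM in the hippocampus control, 2.05, 0.552 and 0.272 CPM at 3, 5 and 7 days, and 0.141, 2.23, 2.26, 79.5 and 3.98 CPM at 3, 8, 12, 16 and 20 weeks. In cortex it measured 0.267 CPM in the control, 0.558, 0.366 and 0.122 CPM at 3, 5 and 7 days, and 0.349, 4.63, 0.482, 3.47 and 0.410 CPM at 3, 8, 12, 16 and 20 weeks. As for Mup2, the control stood alone in second place, with 130 counts.

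**Figure D1:**
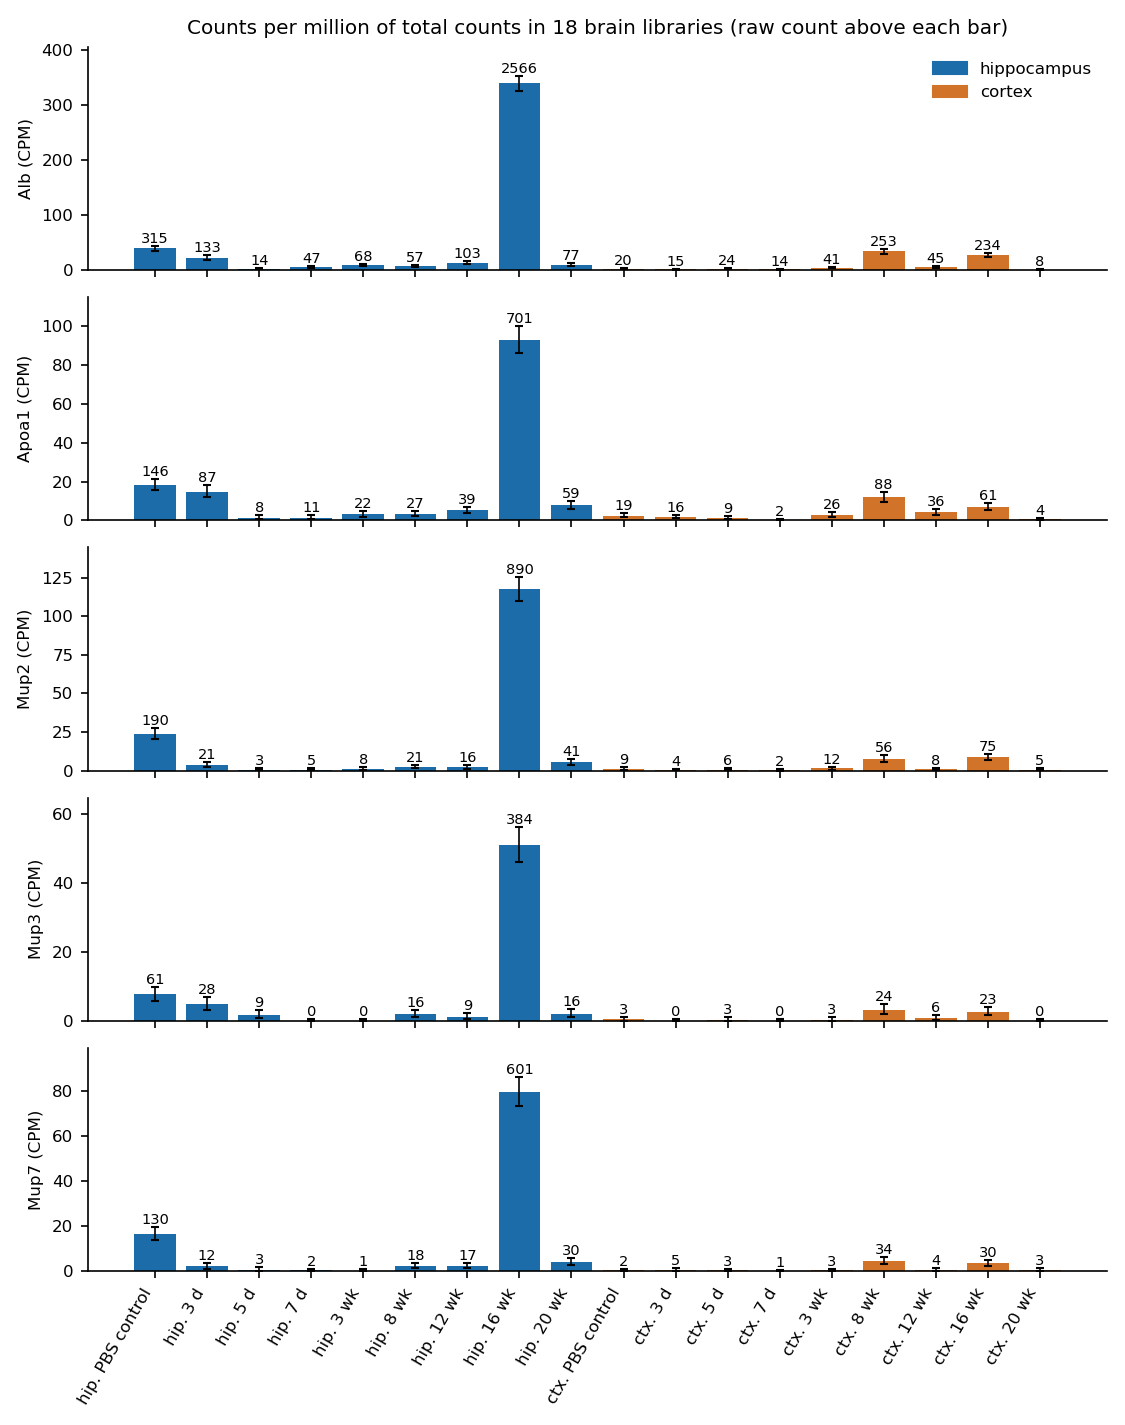
Level of each gene (y axes, CPM of total counts, linear from 0) in the 9 hippocampus and 9 cortex libraries (x axis), with exact 95% Poisson intervals and the raw count above each bar. The 16-week hippocampus is the highest bar in all 5 panels, from 384 counts of Mup3 to 2566 of Alb, and the hippocampus control is second in all 5.

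The 16-week hippocampus held 5142 of the 8251 counts of the 5 genes, or 62.3%, while it held 5.50% of all counts. By gene the share was 63.6% for Alb, 64.9% for Mup2, 65.6% for Mup3, 66.9% for Mup7 and 51.5% for Apoa1. Summed, the genes reached 681 CPM there and 2.31 to 106 CPM in the 17 other libraries, with a median of 11.9 CPM. Against the hippocampus control the ratio was 8.59 for Alb (95% interval 7.63 to 9.68), 6.63 for Mup3 (5.05 to 8.84), 5.06 for Apoa1 (4.23 to 6.09), 4.94 for Mup2 (4.22 to 5.80) and 4.87 for Mup7 (4.02 to 5.94). The intervals cover counting error only, and no other hippocampus library of that time was analysed. Against the cortex of the same 16 weeks the ratio was 12.6 for Alb, 13.6 for Mup2, 19.1 for Mup3, 22.9 for Mup7 and 13.2 for Apoa1.

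The libraries of the neighbouring times were lower. Against the hippocampus at 12 weeks the ratio was 24.8 for Alb, 55.3 for Mup2, 42.4 for Mup3, 35.2 for Mup7 and 17.9 for Apoa1. Against 20 weeks it was 33.2, 21.6, 23.9, 20.0 and 11.8 for the same genes in that order. Since tissues were profiled in bulk, the levels do not show which cells or tissue the RNA came from, and its source was not tested. More cells that express a gene and more RNA per cell cannot be told apart either.

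The share of each gene in the summed counts of the 5 was compared between libraries. The intervals given here cover counting error only, not the spread between libraries of 1 kind, so differences between shares are a description, and the share of Mup2 rests on a count that could hold reads of other Mup genes. Alb took 49.9% of their summed counts in the 16-week hippocampus (exact 95% interval 48.5% to 51.3%), 37.4% in the hippocampus control (34.1% to 40.8%), 55.6% in the cortex at 8 weeks (50.9% to 60.2%) and 55.3% in the cortex at 16 weeks (50.4% to 60.1%). Mup2 took 17.3% in the 16-week hippocampus (16.3% to 18.4%), 22.6% in the hippocampus control (19.8% to 25.5%) and 7.47% in the hippocampus at 3 days (4.69% to 11.2%). At 3 days the share of Apoa1 was instead 31.0% (25.6% to 36.7%), against 13.6% (12.7% to 14.6%) at 16 weeks. Alb thus led in each of the 8 libraries with at least 100 counts of the genes, and the second place went to Mup2 in 3 of them and to Apoa1 in the other 5.

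**Figure D2:**
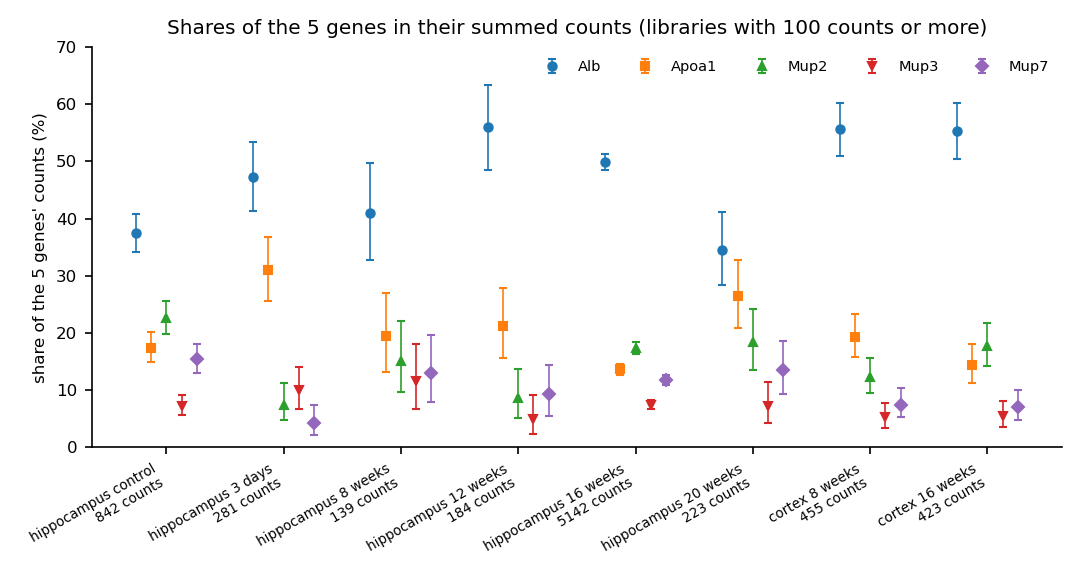
Share of each gene in the summed counts of the 5 genes (y axis, percent, with exact 95% binomial intervals) in the libraries with 100 such counts or more (x axis, with the sum). Alb runs from 34.5% in the hippocampus at 20 weeks to 56.0% at 12 weeks, and Apoa1 exceeds Mup2 at 3 days.

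The Mup rows as a family showed the same library. Of 19 rows with at least 20 counts over all libraries, 18 were highest in the 16-week hippocampus. Over all 16626 genes with such counts, 6.66% were highest there. All 20 Mup rows summed to 797 CPM against 3.01 to 158 CPM elsewhere. Many of these rows share sequence, as given below, so they are not independent and their sum could count a read more than once. Mup15 had 790 counts in that library and 192 in the hippocampus control, Mup14 481 and 100, and Mup20, which encodes the male pheromone darcin, 375 and 28. Mup20 was next highest at 3 days in hippocampus, with 30 counts. Mup4, which nasal and lacrimal glands also express, went another way, with 50 counts in the cortex and 30 in the hippocampus at 5 days and 16 in the 16-week hippocampus. In those 2 libraries of 5 days the list of nasal, lacrimal and salivary gland genes also had its highest counts, 304 in cortex and 373 in hippocampus, against 2 to 146 in the 16 others; their part in the Mup4 level was not tested. Gm2083, which RefSeq lists as a synonym of Mup13 but the tables give as a row of its own, had 1428 counts there and 327 in the hippocampus control.

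Single Mup rows differ in how well a read can be placed. The last 300 bases of the longest coding transcript were searched, where reads of this 3' end method fall. There all 226 windows of 75 bases (the read length) of Mup2 occur in another gene as well, and 98.7% of those of Mup7 do. A single window occurs in up to 15 other genes, and the windows of each of these genes in 16 in all. For Mup3, Mup20, Alb and Apoa1 no window does. The level of Mup2 and of Mup7 as single genes is therefore uncertain. How multiply aligned reads were counted is not given in the sources used here. The same holds for Mup1, Mup8, Mup10, Mup13, Mup14, Mup15 and Mup19, where all 226 windows are shared. Mup9, Mup11, Mup12, Mup16 and Mup17 share 22.1% to 77.9% of theirs. Mup3 and Mup20, in contrast, share none, though only exact matches within transcripts were searched. In the 16-week hippocampus Mup3 and Mup20 stood at 50.8 and 49.6 CPM.

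Other genes of hepatocytes were listed to set the 5 in context. Of 51 other liver-secreted protein genes with at least 20 counts over all libraries, 47 were highest in the 16-week hippocampus, and of 35 liver enzyme and transporter genes, 32 were. Over all 16626 genes with such counts, 1107, or 6.66%, were highest there, and 5 of the 5 members were. The median ratio to the 17 other libraries, with 0.5 count added to each side, was 16.7 for the secreted proteins, 13.98 for the enzymes, 31.7 for the 5 genes and 1.10 for all genes. The secreted proteins included the protease inhibitors Serpina1e (83.5 CPM at 16 weeks against 23.4 CPM in the hippocampus control), Serpina1c (70.8 and 10.7 CPM) and Serpina3k (69.6 and 26.7 CPM), the HDL protein Apoa2 (54.0 CPM and at most 9.26 CPM elsewhere) and the fibrinogen chain Fgb (40.4 and 6.53 CPM in the control). The enzymes included Adh1, an alcohol dehydrogenase (31.0 CPM, at most 7.79 CPM elsewhere), the fatty acid carrier Fabp1 (18.7 and 2.74 CPM) and the cytochrome P450 gene Cyp3a11 (15.9 and 2.76 CPM).

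Some liver genes did not share the pattern. Lcat, the enzyme that esterifies HDL cholesterol, had 13.2 CPM in the 16-week hippocampus and 16.95 CPM in the hippocampus at 8 weeks. Tdo2, a tryptophan dioxygenase that dentate neurons also express, and Sds, serine dehydratase, were highest elsewhere too. Afp, the fetal albumin relative beside Alb, had 1 count there, Apoa4, of the same gene cluster as Apoa1, had 2, and the acute-phase genes Saa1 and Saa2 had 1 each. Of 5 liver transcription factors with 20 counts or more, 1 was highest there, with a median ratio of 1.44. Among the factors Cebpa had 60 counts (7.94 CPM) there and up to 18.2 CPM elsewhere. Hnf4a had 11 counts, against 12 in the hippocampus at 3 days and at most 2 in any other library. Foxa3, with under 20 counts in all, was highest there, with 8 counts (1.06 CPM against at most 0.231 CPM elsewhere).

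**Figure D3:**
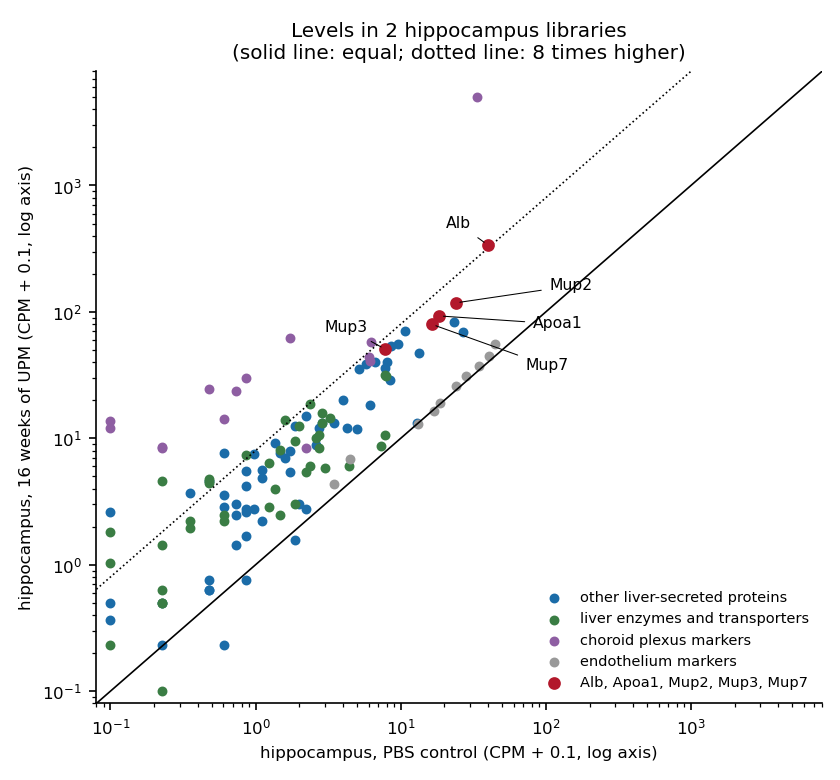
Level in the 16-week hippocampus (y axis) against the hippocampus control (x axis), both in CPM with 0.1 added on log axes, for the 5 genes, other liver genes, choroid plexus markers and endothelium markers. Most liver genes lie above the solid line of equality, with Alb at 339.6 against 39.6 CPM, while endothelium markers lie along it. The choroid plexus markers lie above it too, with Calml4 at 3.91 and Ttr at 150 times the control.

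Genes with at least 20 counts in the 16-week hippocampus and a level at least 8 times that of the highest other library numbered 9 of 12735, or 0.0707%. Alb was the only one of the 5. The others were Cyp2d9, Cyp3a25, Cyp8b1 and Cyp4a12a (cytochrome P450 genes), Hal (histidine ammonia-lyase), Abcb11 (the bile salt export pump), Mup20 and Mup21. Alb at 8.59 was just inside this limit and Car3, a carbonic anhydrase of liver, fat and muscle, at 7.90 just outside. At 4 times, 69 genes, or 0.542%, passed, among them all 5 members, 22 secreted protein genes, 13 enzyme genes and 14 Mup rows. Several of these Mup rows share sequence, so they could count the same reads. At 2 times the hippocampus control, with at least 50 counts in either library, 355 of 11034 genes, or 3.22%, passed, and the 5 members were among them. The library with the next most genes at 8 times was the hippocampus at 8 weeks, with 7, and 14 of the 17 others had 0.

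Markers of other cell types were read beside these values. Choroid plexus genes summed to 5360 CPM in the 16-week hippocampus, the second highest sum after the 6605 CPM of the hippocampus at 3 days, with Ttr at 5014 CPM, and 5 of 14 were highest at 16 weeks. In the libraries next highest in Alb the sum was 57.8 CPM (hippocampus control), 37.6 CPM (cortex at 8 weeks) and 41.0 CPM (cortex at 16 weeks), while in the hippocampus at 3 days, next in Alb at 22.8 CPM, it was the 6605 CPM given above. In the hippocampus at 12 and 20 weeks, which followed in Alb, it was 2055 and 3578 CPM, and in the cortex at 3 days, with 1.67 CPM of Alb, 4037 CPM. Red cell genes summed to 1335 CPM (1037 to 3882 CPM elsewhere), endothelium genes to 255 CPM (180 to 330 CPM) and fibroblast and meninges genes to 179.99 CPM (75.9 to 756 CPM), with none of their 10, 10 and 12 genes highest at 16 weeks. Of 17 nasal, lacrimal and salivary gland genes in the tables, none had 3 counts there, and they summed to 0.397 CPM. Male-biased liver genes, a list added after the values were seen, had 173 counts, led by Cyp2d9 with 68. Their sum was 22.9 CPM, against at most 2.76 CPM elsewhere. The 9 female-biased liver genes had 4 counts there, 7 of them 0, and no count elsewhere. Markers of Kupffer cells, liver endothelium, stellate cells and bile ducts, added likewise, had 30 counts over 10 genes. Their sum was also highest there, at 3.97 CPM against at most 1.76 CPM elsewhere. The part of any of these in the members' levels was not tested.

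**Figure D4:**
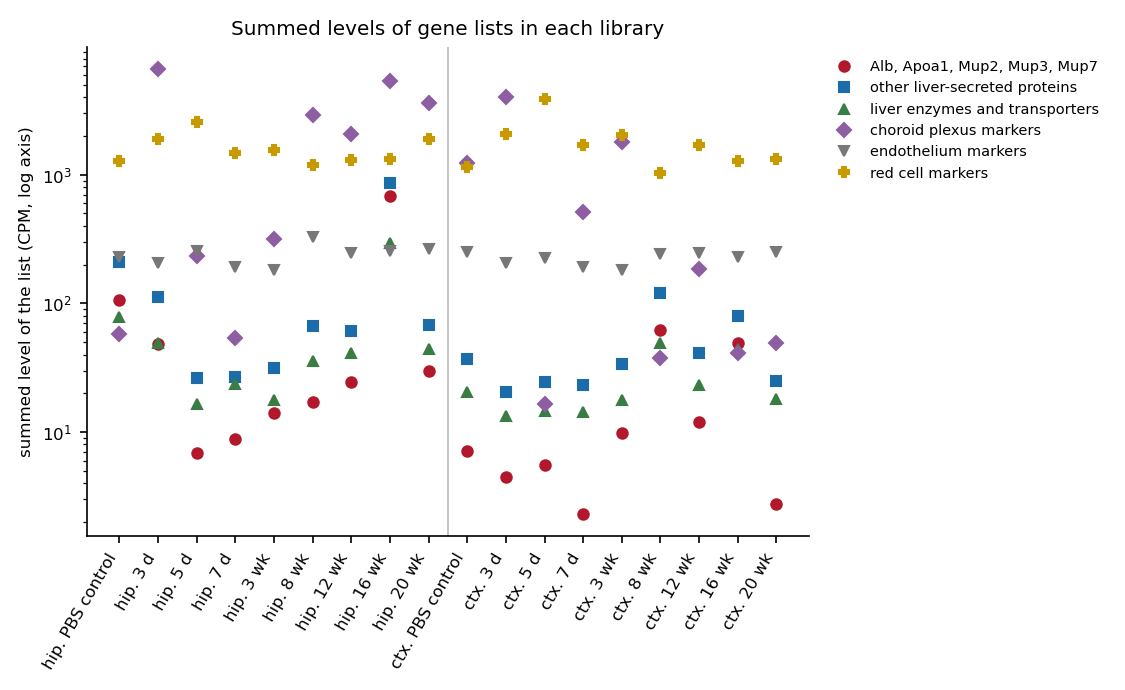
Summed level of 6 gene lists (y axis, CPM, log axis) in each library (x axis, hippocampus left of the line). The 3 liver series are each highest at 16 weeks in hippocampus (681, 866 and 296 CPM), choroid plexus markers peak at 3 days in hippocampus (6605 CPM), and endothelium markers stay between 180 and 330 CPM.

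UPM was compared with PBS over both tissues and 17 libraries, with the 16-week hippocampus left out, to ask whether exposure alone went with these genes. All 5 passed the filter on low counts, which a gene can pass through 1 library. None was called, and edgeR's quasi-likelihood test called 0 of 15490 genes, or 0% (Benjamini-Hochberg adjusted p under 0.05; 1277 at an unadjusted p under 0.05; DESeq2 also called 0, with 1358). The log2 fold change, UPM minus PBS, was -0.83 ± 0.86 (SE, adjusted p = 0.806) for Alb, -0.93 ± 0.80 (adjusted p = 0.758) for Apoa1, -2.37 ± 0.82 (adjusted p = 0.585) for Mup2, -1.16 ± 1.20 (adjusted p = 0.806) for Mup3 and -2.32 ± 0.91 (adjusted p = 0.585) for Mup7. The direction rested on 1 library. Without the hippocampus control all 5 turned positive, Alb to 1.60, Apoa1 to 0.42, Mup2 to 0.62, Mup3 to 0.999 and Mup7 to 1.83, and none was called. The median over 35 other liver-secreted genes tested was -1.26 and over 22 liver enzymes -0.96, with 0 called, against 0.01 over all genes.

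Long-term was compared with short-term exposure to ask whether duration went with these genes. None of the 5 was called, while 10.7% of genes were, 977 higher and 673 lower in long-term libraries (1723 and 298 with total counts alone). The log2 fold change, long-term minus short-term, was 1.23 ± 0.71 (adjusted p = 0.271) for Alb, 0.84 ± 0.67 (adjusted p = 0.440) for Apoa1, 1.80 ± 0.74 (adjusted p = 0.117) for Mup2, 0.86 ± 1.04 (adjusted p = 0.627) for Mup3 and 1.67 ± 0.80 (adjusted p = 0.180) for Mup7. Without the hippocampus at 3 days, Mup2 (2.53, adjusted p = 0.0464) and Apoa1 (1.96, adjusted p = 0.0441) passed. With the 16-week hippocampus put back, Alb (2.66, adjusted p = 0.0473), Mup2 (3.50, adjusted p = 0.0298) and Mup7 (3.39, adjusted p = 0.0453) passed, but the choice of the genes used that library. The short-term libraries all belong to 1 of the 2 header sets. Of the long-term libraries, only those of 3 weeks share that set. A term for the set thus compares only 3 weeks with short-term exposure and cannot judge the later times. With a term for the set, edgeR called 1 gene in all, and Mup3 (-1.76) and Mup7 (-1.08) turned negative, while Alb stood at 0.34, Apoa1 at 0.16 and Mup2 at 0.50. Of the Mup rows tested 1 of 18 was called, Mup4, which fell by 4.15 ± 0.98 (adjusted p = 0.0146; -2.99, adjusted p = 0.600 with the set term), as did 4 of 7 nasal, lacrimal and salivary gland genes tested. None of the 35 other liver-secreted and 22 liver enzyme genes tested was called. Of 17 genes that both liver and brain secrete, 1 was called, Apoe, the main lipid carrier of the brain, which was lower in long-term libraries (-0.40 ± 0.11, adjusted p = 0.0292; -0.059, adjusted p = 0.928 with the set term).

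Hippocampus was compared with cortex to ask whether the tissue went with these genes once the 16-week library was set aside. None of the 5 was called, while 11.9% of genes were, 859 higher and 992 lower in hippocampus (1019 and 781 with total counts alone). The log2 fold change, hippocampus minus cortex, was 0.81 ± 0.66 (adjusted p = 0.521) for Alb, 0.99 ± 0.61 (adjusted p = 0.362) for Apoa1, 0.61 ± 0.67 (adjusted p = 0.655) for Mup2, 1.49 ± 0.96 (adjusted p = 0.393) for Mup3 and 0.98 ± 0.73 (adjusted p = 0.475) for Mup7. For Alb it was 0.02 within the control and 8 to 20 week libraries and 1.95 (adjusted p = 0.0649) within those of 3, 5 and 7 days and 3 weeks. The same values for Apoa1 were 0.41 and 1.85, for Mup2 0.46 and 1.19, for Mup3 0.78 and 2.73, and for Mup7 1.16 and 0.85, with none called. With the 16-week hippocampus put back, all 5 were called, with Alb at 2.42 (adjusted p = 0.0352), but the choice of the genes used that library.

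**Figure D5:**
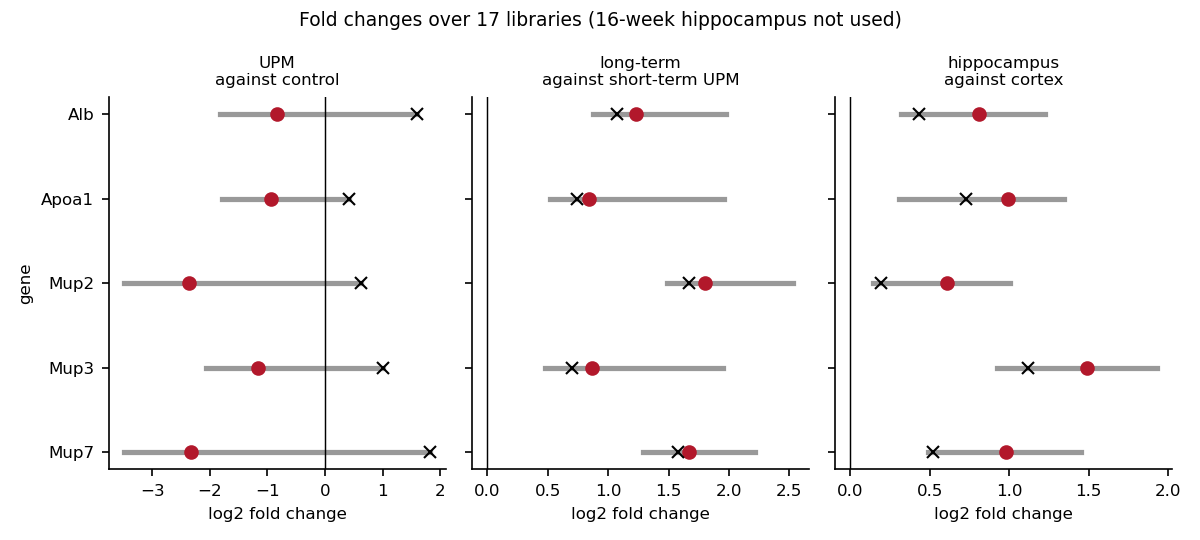
Log2 fold change of each gene (x axes) in the 3 comparisons over 17 libraries. Red points are the values with all 17, grey lines the range when each library is left out in turn, and crosses the value without the hippocampus control, which lies right of 0 in the UPM panel, from 0.42 for Apoa1 to 1.83 for Mup7.

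Receptors and partners of the proteins were read from a list of 18 genes, 16 of which were tested. In long-term against short-term libraries, where 10.7% of all genes were called, 4 of the 16 rose and none fell, among them Lrp1, an endocytic receptor (0.49 ± 0.12, adjusted p = 0.0168), the cholesterol exporter Abcg1 (0.41 ± 0.11, adjusted p = 0.0255) and Scarb1, the HDL receptor (0.87 ± 0.24, adjusted p = 0.0297). With the term for the header set, which leaves only 3 weeks against the short-term libraries, none of the 16 was called. Lrp1 then stood at -0.04 (adjusted p = 0.948), Abcg1 at 0.22 (adjusted p = 0.684) and Scarb1 at -0.46 (adjusted p = 0.513). These values do not bear on the later times, where duration and header set cannot be told apart. Between the tissues, where 11.9% of all genes were called, 2 of the 16 were. Sparc, which binds albumin, was higher (0.81 ± 0.14, adjusted p = 0.000391) and the lipase Lipg lower (-1.72 ± 0.51, adjusted p = 0.0297) in hippocampus. Against PBS none was called, with Scarb1 at -0.78 ± 0.31 (adjusted p = 0.585). In the 16-week hippocampus 1 of 17, B2m, the light chain of the neonatal Fc receptor that recycles albumin and of MHC class I, was highest, at 339.7 CPM against at most 275 CPM elsewhere, and the median ratio of the list was 1.17.

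The genes whose levels ran most like Alb over the 17 other libraries were ranked by Pearson's r of log2(CPM + 1), among 13899 genes with a mean of at least 1 CPM. The first 10 were Serpina1a (0.94), Fgb (0.93), Apoa1 (0.92), Serpina1b (0.91), Serpina1c (0.91), Mup14 (0.89), Mup2 (0.88), Serpina3k (0.87), Serpina1d (0.87) and Mup1 (0.86), while Mup7 (0.82) stood 20th and Mup3 (0.81) 22nd. All 10 encode proteins that hepatocytes secrete, and the points share library and depth, so r is a description. Among the 31 secreted protein genes with 50 counts or more in the pair, each of the 31 was higher in the 16-week hippocampus than in the hippocampus control. With 0.5 count added to each side, the median ratio was 4.66, and the ratio ran from 1.02 for Lcat to 13.5 for Apoh, which had 57 and 4 counts.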

How the data were processed

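Libraries were made from polyadenylated RNA with the QuantSeq 3' kit and read as single ends of 75 bases, per the labels' protocols. The deposited values are raw counts per gene symbol that the authors made with Bowtie2, bedtools and edgeR on mm10, per the submitters' processing notes; versions, annotation, strand handling and how multiply aligned reads were counted are not given in the sources used here. Each of the 18 tables held 23282 lines and 23238 symbols; repeated symbols were summed, and 27 symbols turned into dates in 2 tables were restored by row order.

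CPM is per total counts. Counts were tested with edgeR 4.0.16 in R 4.3.3 (glmQLFit and glmQLFTest, TMM, filterByExpr, Benjamini-Hochberg adjustment, threshold 0.05), with tissue and exposure class in 1 model over 17 libraries, where times served as replicates. The script was tested on simulated data. Alternatives were DESeq2 1.42.0, total counts alone, RLE size factors, omitting the filter, a term for the header set, a time block, and leaving out each library. The members and gene lists were chosen with earlier results of these data known. Genes were named by a written rule: the 5 members, all Mup rows, the 20 genes that most stood apart, the 10 most like Alb, the highest and most raised of each list, and the 3 receptors with the smallest p in each comparison. Genes outside it (Lcat, Sds, Tdo2, Apoa2, Apoh, Afp, Apoe, Gm2083, Saa1 and Saa2) were named after their values were seen. Some genes that the rule names are not reported here. Promoters are from RefSeq (GRCm38.p6), where all 5 members matched, and positions from GENCODE M21. Mapping of reads to single Mup genes was not analysed here.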

Additional observations from a re-analysis of the deposited data

Results flagged for a closer look

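In the 5 long-term hippocampus libraries the 16-week value lay far from the rest for each of the 5 genes: Alb at 339.6 CPM, Mup2 at 118 CPM, Mup3 at 50.8 CPM, Mup7 at 79.5 CPM and Apoa1 at 92.8 CPM. The gap to the next library was 0.980, 0.963, 0.958, 0.952 and 0.947 of the whole range in that order, where 0.71 is the 95% limit for 5 libraries. The genes were chosen for this library, so the distance is a description. Of 10 groups of 5 libraries examined, the 5 in hippocampus and none of the 5 in cortex were so marked. Chance marks about 1 in 20 groups, a rate that does not apply to genes chosen for the library that marks them, so nothing is read from the count.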

How the results depend on the processing

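UPM against PBS gave 0 genes in all 23 alternatives. Without the hippocampus control the fold changes reversed to 1.60 (Alb), 0.62 (Mup2), 0.999 (Mup3), 1.83 (Mup7) and 0.42 (Apoa1); over all left-out libraries they ran from -1.83 to 1.60, -3.48 to 0.62, -2.06 to 0.999, -3.49 to 1.83 and -1.80 to 0.42. With all 18 libraries Alb stood at 0.087, and with the header-set term Mup3 stood at 0.45. In long-term against short-term, where that term leaves only 3 weeks against 3 to 7 days, Mup3 stood at -1.76 and Mup7 at -1.08. The cause was not tested. Long-term against short-term gave 1650 genes, 2489 with DESeq2, 1 with the set term, and 742 (without the cortex at 5 days) to 3098 (without the cortex at 3 weeks) when 1 library was left out; it also moved over 1.5 times without the hippocampus at 3 (2701), 8 (969), 12 (904) or 20 weeks (919) and the cortex at 8 (947), 12 (1080), 16 (969) or 20 weeks (940). Hippocampus against cortex gave 1851 genes, 1536 to 1971 with 1 library left out, 2838 within the control and 8 to 20 week libraries and 589 within the others. Both parts hold fewer libraries than the main fit, and the reason for their difference was not tested. Genes standing apart numbered 9, 69 at 4 times, 3 at 50 counts and 14 against hippocampus alone. The 5 genes' CPM at 16 weeks moved with the scaling (Alb 309.7 to 379), and every ratio to the highest other library stayed above 4.

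Same-time libraries of the 2 tissues correlated at -0.02 to 0.16 over 6 pairs, and 3 of 6 matched their own time best, so they were not treated as pairs. With time as a replicate block 2111 genes were called, Alb stood at 1.52 (adjusted p = 0.0841), and none of the 5 was called. With 1 library per time and counts of 0 to 3 for Mup3 and Mup7 in several libraries, small differences were not detectable in these data. Larger ones could go uncalled too, such as Mup2 at -2.37 ± 0.82 (edgeR, adjusted p = 0.585) in UPM against PBS.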
